A study of Rattus norvegicus with 24 samples.

Results

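CXC chemokines are small secreted proteins that direct white blood cells into tissue, and 8 of their genes (Cxcl1, Cxcl2, Cxcl9, Cxcl10, Cxcl11, Cxcl12, Cxcl13 and Cxcl16) were followed in rat liver. The members were every probe whose gene name in the array files was one of the 8 listed symbols. This gave 9 probes for 8 of the 26278 gene names on the array, and 7 members were among the 18641 genes tested. The question was how the chemokines that attract neutrophils and those driven by interferon stood over the 4 diets.

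The samples were livers of 24 male Wistar rats, 6 months old at the start and 9 months old at sampling after 12 weeks of feeding, with 6 rats per diet. All diets were modified from the purified AIN76A formulation, with starch and dextrin balancing the carbohydrate. The control diet held adequate copper (125 mg/kg) and 10% sucrose. The high-sucrose diet held adequate copper and 30% sucrose. The low-copper diet held copper below 0.3 mg/kg and 10% sucrose, and the combined diet held that low copper and 30% sucrose. Wistar is an outbred strain, all rats had earlier had free access to Mazuri rodent pellets, and each array held the RNA of 1 rat.

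CXC chemokines fall into functional groups. Cxcl1 and Cxcl2 bind the receptor Cxcr2 and draw neutrophils, and their genes respond quickly to NF-kappaB, the transcription factor that relays signals of interleukin 1, tumour necrosis factor and bacterial products. Cxcl9, Cxcl10 and Cxcl11 bind Cxcr3 on activated T cells and natural killer cells and are classical targets of interferon, although Cxcl10 also answers to NF-kappaB. Cxcl12 holds cells that carry Cxcr4, Cxcl13 gathers B cells through Cxcr5, and Cxcl16 is a membrane-bound ligand of Cxcr6. In liver such chemokines come from hepatocytes, Kupffer cells, endothelium and stellate cells.

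The upstream sequences of the 5 members of the neutrophil-attracting and interferon-driven groups are shown because 3 of them (Cxcl1, Cxcl2 and Cxcl10) were high in the same livers. The windows are the 250 bases before the annotated start in RefSeq on GRCr8, and all 8 members were matched to that table by symbol. They lie at chr14:17479322-17479571 (minus strand), chr14:17467256-17467505 (minus strand), chr14:16006916-16007165 (plus strand), chr14:15988816-15989065 (plus strand) and chr14:15973478-15973727 (plus strand). Each is read 5′ to 3′ along its gene's strand, and capitals mark matches to any of 3 motifs searched on both strands.
Cxcl1: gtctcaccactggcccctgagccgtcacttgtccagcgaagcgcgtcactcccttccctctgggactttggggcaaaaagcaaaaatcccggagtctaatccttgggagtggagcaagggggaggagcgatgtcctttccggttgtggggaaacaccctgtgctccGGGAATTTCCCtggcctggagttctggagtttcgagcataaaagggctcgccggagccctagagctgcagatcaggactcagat
Cxcl2: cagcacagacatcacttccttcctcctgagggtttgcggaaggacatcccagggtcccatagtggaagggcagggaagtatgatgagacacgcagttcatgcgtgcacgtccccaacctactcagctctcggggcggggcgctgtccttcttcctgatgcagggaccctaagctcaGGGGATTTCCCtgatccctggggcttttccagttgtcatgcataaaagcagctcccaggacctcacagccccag
Cxcl9: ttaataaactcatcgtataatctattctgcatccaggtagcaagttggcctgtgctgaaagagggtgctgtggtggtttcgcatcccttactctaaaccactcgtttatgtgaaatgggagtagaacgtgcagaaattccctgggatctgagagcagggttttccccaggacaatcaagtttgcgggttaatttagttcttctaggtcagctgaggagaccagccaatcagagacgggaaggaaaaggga
Cxcl10: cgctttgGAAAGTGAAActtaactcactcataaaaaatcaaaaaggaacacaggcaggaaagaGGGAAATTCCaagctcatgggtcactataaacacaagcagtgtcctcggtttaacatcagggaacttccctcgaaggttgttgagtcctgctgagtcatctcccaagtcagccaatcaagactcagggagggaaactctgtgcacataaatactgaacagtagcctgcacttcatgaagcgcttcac
Cxcl11: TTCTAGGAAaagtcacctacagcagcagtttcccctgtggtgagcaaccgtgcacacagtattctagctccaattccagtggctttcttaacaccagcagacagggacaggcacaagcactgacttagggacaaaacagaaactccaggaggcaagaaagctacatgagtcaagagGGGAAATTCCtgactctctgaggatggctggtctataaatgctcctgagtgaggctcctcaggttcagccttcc

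The NF-kappaB consensus was present in 4 of the 8 members (Cxcl1, Cxcl2, Cxcl10 and Cxcl11), against 3.54% of 33469 promoters of the same length. In Cxcl1 the match GGGAATTTCC began 84 bases before the start, overlapping a match on the other strand. In Cxcl2 overlapping matches began 74 and 73 bases before the start. Cxcl10 held GGGAAATTCC at 187 bases before the start and, farther out at 243, the interferon response element GAAANNGAAA as GAAAGTGAAA, which 3.41% of promoters hold. The gamma-activated sequence TTCNNNGAA matched in Cxcl11 alone of the members, and 7.67% of promoters hold it. The windows of Cxcl9, Cxcl12, Cxcl13 and Cxcl16 held none of the 3. The Cxcl10 window also holds gggaacttcc, which was not a match to the NF-kappaB consensus as searched. These matches describe the letters in the window and are no evidence of binding.

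Of the 8 members, 6 (Cxcl1, Cxcl2, Cxcl9, Cxcl10, Cxcl11 and Cxcl13) lie on chromosome 14. The probe positions in the array files refer to rn4. The Cxcl1 probe covers chr14:18690468-18690527 and the Cxcl2 probe chr14:18677165-18677224, both on the minus strand. The probes of Cxcl11 (chr14:17252192-17252251), Cxcl10 (chr14:17267994-17268053) and Cxcl9 (chr14:17288831-17288890) follow each other on the plus strand. Cxcl13 is on the same chromosome at chr14:15127379-15127438, Cxcl16 at chr10:57296159-57296218, and the Cxcl12 probes at chr4:153516205-153516264 and chr4:153510285-153510344. Whether a probe lies in an exon or a UTR of that build was not analysed here.

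A level here is the log2 of a probe's processed signal minus the log2 of the 75th percentile of its array, so 0 is the 75th percentile. A level belongs to its probe, and levels of different genes were not ranked against each other. The 75th percentile signal was 433 to 1284 over the 24 arrays, and the share of probes well above background was 59.9 to 73.4%. Hepatocyte markers were all measured, and albumin (Alb) stood between 8.03 and 9.31 in every rat. The arrays came on 3 slides of 8. The combined diet filled 6 places of slide 1 beside 2 rats of the high-sucrose diet. Slide 2 carried the other 4 of these and 4 of the low-copper diet, whose last 2 rats shared slide 3 with the 6 controls. Neither sucrose comparison shares a slide, so slide and sucrose cannot be told apart within them.

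**Figure D1:**
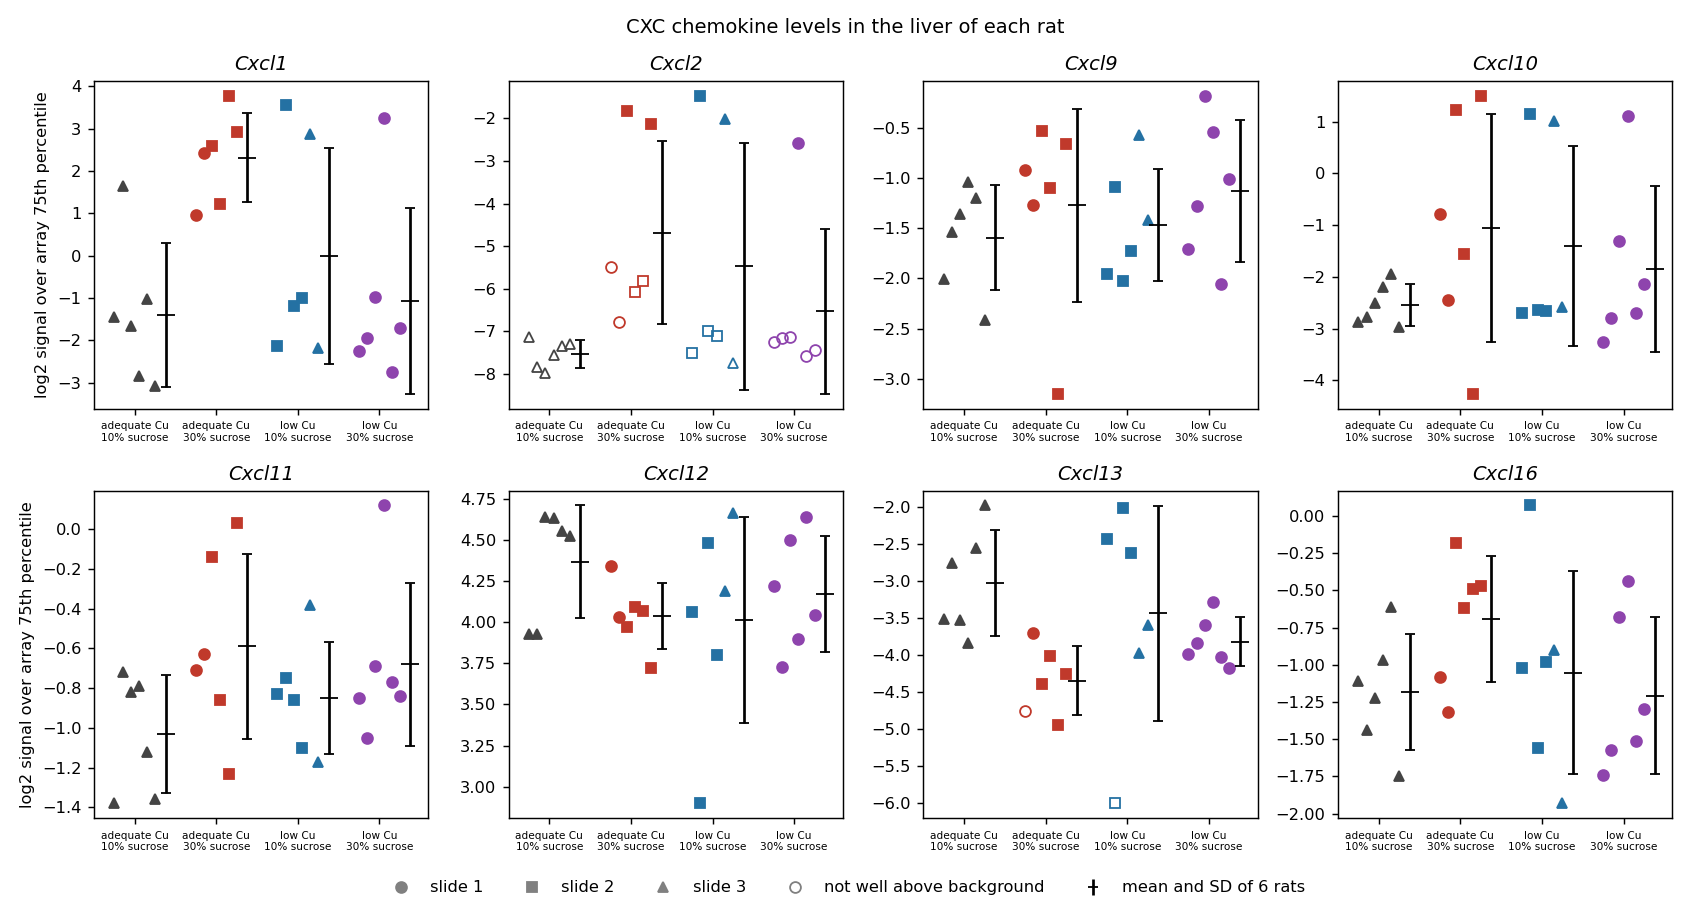
Level of each CXC chemokine (log2 signal over the array's 75th percentile, vertical axis, with its own scale per gene) in each of 24 rats by diet (horizontal axis, named by copper, Cu, and sucrose), with marker shape for the slide, open markers for values not well above background, and bars for the mean and SD of 6 rats. All 6 Cxcl1 values on the high-sucrose diet lie between 0.97 and 3.77, while the other diets each hold 1 or 2 high rats.

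Cxcl1 was the member that moved most. On the high-sucrose diet its levels in rats 1 to 6 were 0.97, 2.43, 2.58, 1.23, 3.77 and 2.91. On the control diet they were -1.44, 1.65, -1.66, -2.84, -1.02 and -3.07. Each of the 6 levels on the high-sucrose diet was above the control mean, and the groups overlapped through control rat 2 alone. Cxcl1 stood at 2.32 ± 1.05 (SD, n = 6) against -1.40 ± 1.69 (SD, n = 6), a rise of 3.71 log2 units (SE 1.05, limma adjusted p = 0.0147), or 13.1-fold.

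The 2 diets poor in copper gave a divided picture of Cxcl1. On the low-copper diet the levels were -2.13, 3.55, -1.18, -1.0, 2.87 and -2.17, so rats 2 and 5 were high and the other 4 were in the control range. On the combined diet they were -2.26, -1.95, -0.98, 3.26, -2.74 and -1.70, and only rat 4 was high. The means were -0.01 ± 2.55 and -1.06 ± 2.20 (SD, n = 6 each). In order of the mean the diets ran from high-sucrose through low-copper and combined to the control, and the last 3 differed by less than their own SDs. Over all 24 rats Cxcl1 spanned 114-fold and split at a gap of 1.95 log2 units, with 14 rats at or below -0.98 and 10 at or above 0.97.

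Cxcl2, close kin of Cxcl1, was well above background in only 5 of 24 livers and so was not tested. Those 5 were rat 4 on the combined diet (-2.58), rats 3 and 6 on the high-sucrose diet (-1.82 and -2.12), and rats 2 and 5 on the low-copper diet (-1.47 and -2.02). In the other 19 livers the signal, not well above background, ran from -7.97 to -5.49. No control rat had it above background. The means over all rats were -4.68 on the high-sucrose diet and -5.47 on the low-copper diet, against a measured mean of -7.52 on the control diet. Because every control value was below background, that diet gives only a bound, set per array at the dimmest signal well above background. Against it the first diet stood at least 1.74-fold higher and the second at least 1.01-fold higher, with 4 of 6 rats in each of them below background too.

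Cxcl10 was high in exactly the 5 livers in which Cxcl2 was well above background. Its levels there were 1.12, 1.23, 1.5, 1.16 and 1.01, in the order in which the rats were named for Cxcl2. The next highest of the other 19 was -0.79. On the control diet the 6 rats lay within a narrow band of -2.97 to -1.95, with a median of -2.64. The 3 other diets overlapped it, with medians of -1.17 on the high-sucrose diet, -2.62 on the low-copper diet and -2.41 on the combined diet. None of the differences in Cxcl10 passed: 30% sucrose at adequate copper gave 1.49 (SE 0.91, adjusted p = 0.266) and low copper at 10% sucrose 1.14 (SE 0.91, adjusted p = 0.473).

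In the same 5 livers Cxcl1 took ranks 2 to 6 of 24, with levels from 2.58 to 3.55. The rank above them belonged to rat 5 on the high-sucrose diet. That rat had the highest Cxcl1 of all (3.77) and the lowest Cxcl10 (-4.26) and the lowest Cxcl9 (-3.15), and its Cxcl2 was not well above background. Cxcl1 and Cxcl10 thus stood at opposite ends in 1 liver and were high together in 5. The 10 rats above the Cxcl1 gap also held rats 1, 2 and 4 on the high-sucrose diet and control rat 2. These had Cxcl1 from 0.97 to 2.43, but their Cxcl10, from -2.77 to -0.79, was below that of the 5 livers. The 5 livers came from 3 diets and all 3 slides, and they are given as single values because they were picked out by their own chemokine levels.

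**Figure D2:**
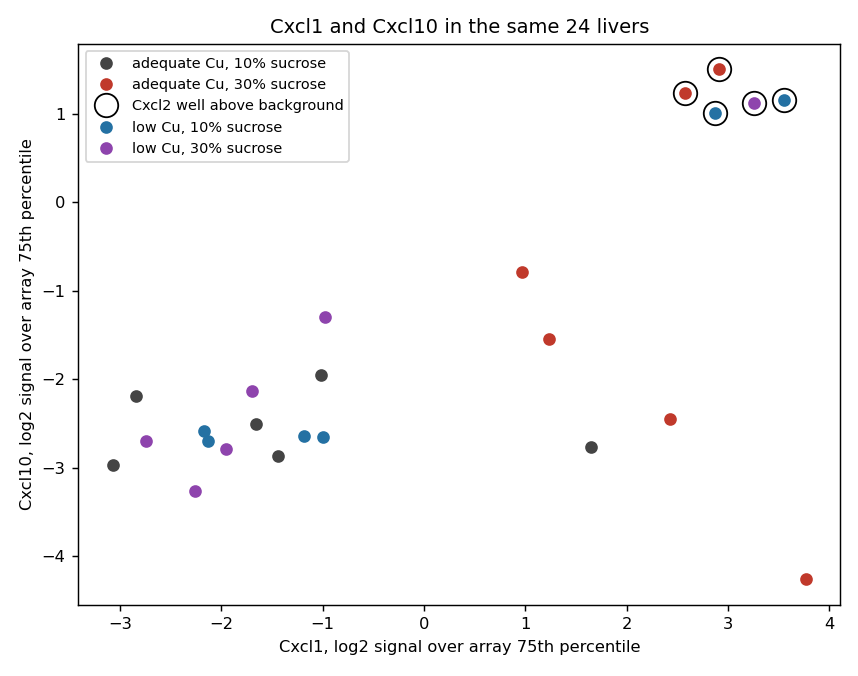
Cxcl1 level (horizontal axis) against Cxcl10 level (vertical axis), both as log2 signal over the array's 75th percentile, with 1 point per rat coloured by diet and rings for the rats with Cxcl2 well above background. The 5 ringed rats sit apart with Cxcl10 between 1.01 and 1.5, and rat 5 on the high-sucrose diet lies alone at the lower right with Cxcl1 at 3.77 and Cxcl10 at -4.26.

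Cxcl9 and Cxcl11 varied far less than Cxcl10. Cxcl9 spanned 7.88-fold over the rats, with means of -1.59 ± 0.52 on the control diet, -1.27 ± 0.96 on the high-sucrose diet, -1.47 ± 0.56 on the low-copper diet and -1.13 ± 0.71 on the combined diet (SD, n = 6 each). Cxcl11 spanned 2.83-fold, with means of -1.03 ± 0.30, -0.59 ± 0.47, -0.85 ± 0.28 and -0.68 ± 0.41 in the same order. All groups overlapped. The largest of these differences, that of Cxcl11 with 30% sucrose at adequate copper, was 0.44 (SE 0.21) with an unadjusted limma p of 0.0436 and an adjusted p of 0.138, higher than the control mean in 5 of 6 rats.

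Averaged over Cxcl9, Cxcl10 and Cxcl11 in each rat, the interferon-driven members stood at -1.72 ± 0.37 on the control diet and -0.97 ± 1.17 on the high-sucrose diet (SD, n = 6 each). The corresponding means were -1.24 ± 0.88 on the low-copper diet and -1.22 ± 0.84 on the combined diet. The highest single rats were those already named, at 0.29 and 0.19 (rats 6 and 3 on the high-sucrose diet), 0.24 and 0.02 (rat 4 on the combined and rat 5 on the low-copper diet). The lowest was rat 5 on the high-sucrose diet at -2.88. The diets overlapped on this average throughout, whereas for Cxcl1 a single control rat bridged the adequate copper diets.

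Cxcl12, the homeostatic member, was bright and steady. Its range over all 24 rats was 3.40-fold, from 2.90 in rat 2 on the low-copper diet to 4.66. The next lowest rat was at 3.72. Its means were 4.37 ± 0.34 on the control diet, 4.04 ± 0.20 on the high-sucrose diet, 4.02 ± 0.63 on the low-copper diet and 4.17 ± 0.35 on the combined diet (SD, n = 6 each). The adjusted p of its differences between diets lay between 0.335 and 0.843. A dimmer second probe for another Cxcl12 transcript followed the brighter one with r = 0.85 over the 24 rats and gave differences of the same sign in 3 of the 4 diet comparisons. At low copper it gave -0.02 for 30% against 10% sucrose, where the brighter probe gave 0.16.

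Cxcl13, the B cell attractant, was dim and moved the other way from Cxcl1. On the control diet its 6 rats ran from -3.84 to -1.98 with a median of -3.14, and on the high-sucrose diet from -4.95 to -3.70 with a median of -4.32. The groups overlapped between -3.84 and -3.70, and each of the 6 high-sucrose rats was below the control mean. Cxcl13 thus fell by 1.31 log2 units (SE 0.47, adjusted p = 0.0472) or 2.48-fold, just inside the threshold. Leaving out 1 rat at a time ended this call in 18 of 24 fits, and it was kept only without rat 2 on the high-sucrose diet, rat 1, 2, 3 or 4 on the low-copper diet, or control rat 4. On the low-copper diet rat 2 was far below its group at -6.0, where the probe was not well above background, against -3.97 or higher in the other 5. On the combined diet the 6 rats were tightly set, from -4.18 to -3.28.

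Cxcl16, the ligand of Cxcr6, had means of -1.18 ± 0.39 on the control diet, -0.69 ± 0.42 on the high-sucrose diet, -1.05 ± 0.68 on the low-copper diet and -1.21 ± 0.52 on the combined diet (SD, n = 6 each). It spanned 4.02-fold in all, and the highest level was 0.07 in rat 2 on the low-copper diet. The highest 4 ranks were held by 4 of the 5 livers with Cxcl2 above background, and the other one of them ranked 9. None of its differences passed, and the largest were -0.52 for low copper at 30% sucrose (SE 0.28, adjusted p = 0.535) and 0.49 for 30% sucrose at adequate copper (SE 0.28, adjusted p = 0.239).

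**Figure D3:**
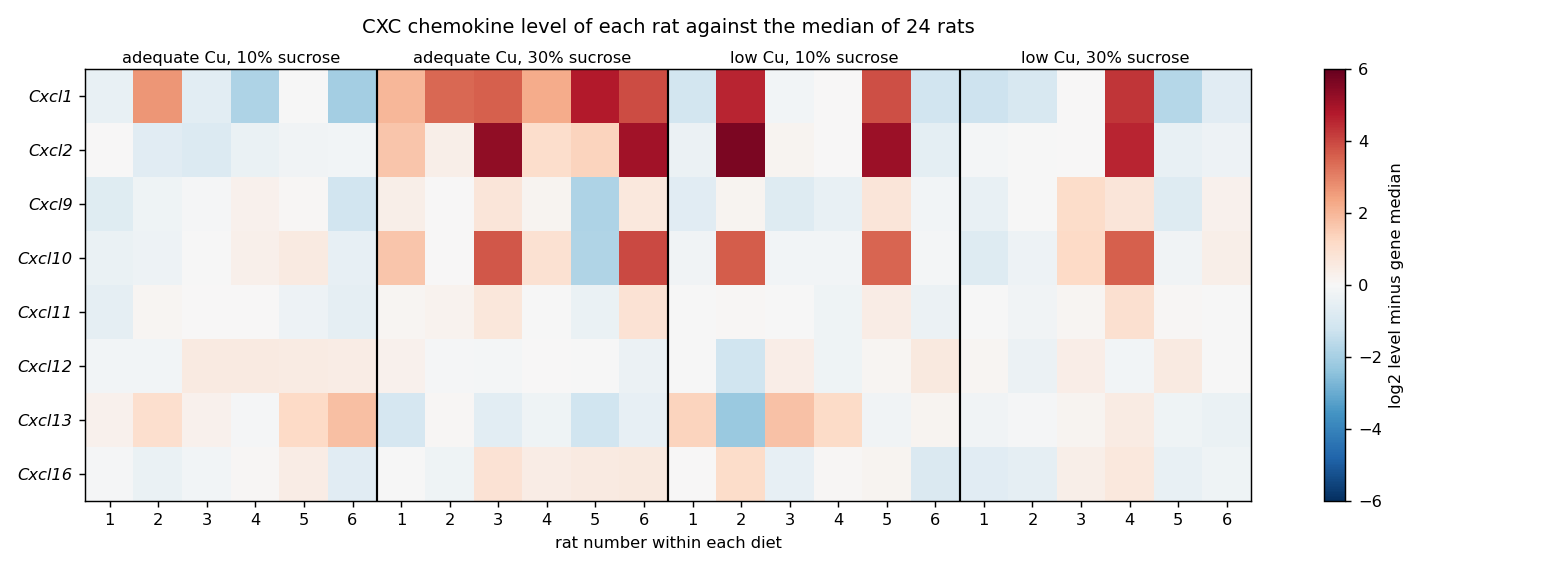
Level of each CXC chemokine minus that gene's median over 24 rats (colour, log2 units) for every rat, with columns grouped by diet and numbered by rat. Cxcl1 is above its median in all 6 rats on the high-sucrose diet, and Cxcl1, Cxcl2 and Cxcl10 are raised together in 5 single columns of 3 diets. In those columns Cxcl9, Cxcl11 and Cxcl16 rank between 1 and 9 of 24, with smaller spans over the rats.

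The members past the threshold were counted against the share of all genes. For 30% against 10% sucrose at adequate copper 2 of 7 members were called, 1 higher (Cxcl1) and 1 lower (Cxcl13), where 20.9% of all 18641 genes were called (18.4% higher and 2.48% lower). The median difference of the 7 was 0.44 against 0.067 over all genes. For low against adequate copper at 10% sucrose none of 7 was called and none had an unadjusted limma p under 0.05, while 18.6% of all genes were called. The members' median there was 0.13 against 0.055 over all genes.

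For low against adequate copper at 30% sucrose none of 7 members was called by limma, and 0% of all genes were, although 1839 genes had an unadjusted p under 0.05. Among the members Cxcl1 alone had an unadjusted p under 0.05. Its difference, low minus adequate copper, was -3.38 (SE 1.05, adjusted p = 0.463), and 5 of 6 rats lay in that direction. Here 2 rats of the adequate copper diet share slide 1 with all 6 on low copper, and within that slide Cxcl1 differed by -2.76 (exact permutation p = 0.143, two-sided, where 28 regroupings allow no less than 0.0357). For 30% against 10% sucrose at low copper limma called none of 7 and 0% of all genes (1786 with an unadjusted p under 0.05), and 0 of 7 members had an unadjusted p under 0.05. Cxcl1 there was -1.05 (SE 1.05, adjusted p = 0.752).

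The interaction asks whether the copper difference itself changes with sucrose, and Cxcl1 was the 1 of 7 members called, where 20.8% of all genes were called (18.9% lower and 1.94% higher). Low copper went with less Cxcl1 at 30% sucrose (-3.38) and with more at 10% sucrose (1.39), a difference of -4.76 (SE 1.49, adjusted p = 0.0255). Neither copper difference passed by itself (SE 1.05 each, limma adjusted p = 0.463 at 30% and 0.447 at 10% sucrose). Cxcl10 had the same signs, -0.79 and 1.14, and its interaction of -1.93 (SE 1.28, adjusted p = 0.306) was not past the threshold. Cxcl9 gave 0.02 (SE 0.55) and Cxcl11 -0.27 (SE 0.29). Cxcl12, Cxcl13 and Cxcl16 gave 0.49, 0.93 and -0.65, with adjusted p from 0.273 to 0.338.

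The calls in Cxcl1 and Cxcl13 did not hold with the slide as a block. With it limma called no member in any comparison, and 2 members had an unadjusted p under 0.05, both for 30% sucrose at adequate copper. Cxcl1 then differed by 4.56 (SE 2.03) between the adequate copper diets, with an unadjusted p of 0.0355 and an adjusted p of 1.0, and Cxcl13 by -1.89 (SE 0.89), with 0.0462 and 1.0. The adequate copper diets share no slide, so with the block both differences run through the low-copper diet. They add the step on slide 2 to that on slide 3, and assume that a slide shifts all its rats alike. The Cxcl1 interaction with the block was -4.50 (SE 2.17, adjusted p = 0.367). In the fit with no slide term, but without rat 5 on the high-sucrose diet and rat 2 on the low-copper diet, which were left out because their inflammatory genes stood apart, it was -3.76 (adjusted p = 0.0839). With the block limma called 0 of all genes for 30% sucrose at adequate copper (758 with an unadjusted p under 0.05) and 10 for the interaction. The part of the slide in these results was not tested further.

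**Figure D4:**
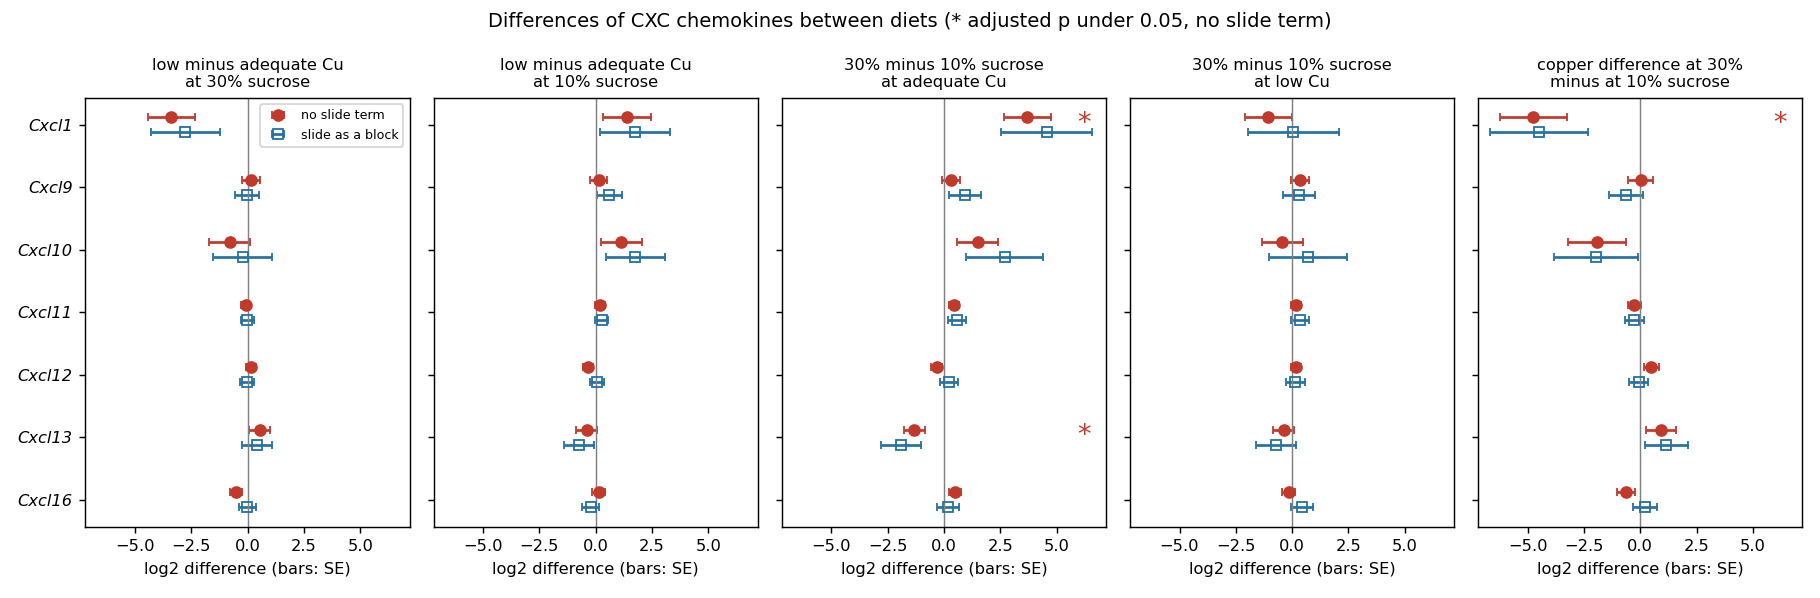
Difference of each tested CXC chemokine in the 5 comparisons (horizontal axis, log2 units, bars for the SE) without a slide term (filled) and with the slide as a block (open), with stars for adjusted p under 0.05 without the slide term. Cxcl1 and Cxcl13 carry stars for 30% sucrose at adequate copper and Cxcl1 for the interaction, and the Cxcl1 points stay on the same side of 0 with the block in all comparisons except 30% against 10% sucrose at low copper (-1.05 and 0.06). With the block the copper differences are those within slides 1 and 3, where 1 diet has only 2 rats. The sucrose differences then run through a diet of the other copper level.

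Within a slide that holds both copper levels the members could be compared without a slide term. On slide 3, 2 rats on the low-copper diet and 6 controls gave differences of 1.75 for Cxcl1, 1.75 for Cxcl10, 0.60 for Cxcl9 and -0.75 for Cxcl13. On slide 1 the 30% sucrose diets gave -0.22 for Cxcl10, -0.03 for Cxcl9 and 0.41 for Cxcl13. The smallest exact permutation p of the 14 tests was 0.143, and the smallest adjusted p was 0.667. Single rats weigh heavily here, since the pair on slide 3 holds rat 5, with Cxcl1 at 2.87, and rat 6, at -2.17.

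Of the receptors of these ligands, Cxcr2 was the 1 of 4 tested that passed. Over all genes 18.4% were called higher with 30% sucrose at adequate copper and 18% with low copper at 10% sucrose. In the interaction 18.9% were called lower. Cxcr2, the receptor of Cxcl1 and Cxcl2, ran from -6.70 to -5.90 on the control diet and from -5.46 to -3.09 on the high-sucrose diet, with no overlap (11.9% of all genes were higher without overlap there). It was well above background in only 1 of 6 control rats, against 5 of 6 on each of the high-sucrose and low-copper diets, so the control mean rests largely on dim values. By the measured values it rose by 1.90 (SE 0.32, adjusted p = 0.000973), and on the low-copper diet by 1.75 (SE 0.32, adjusted p = 0.00115). Its interaction was -2.80 (SE 0.46, adjusted p = 0.000893). With the slide as a block these values were 1.5, 1.22 and -1.48, and none passed.

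Receptors of the other members were not called. Cxcr3, for Cxcl9, Cxcl10 and Cxcl11, differed by 0.24 (SE 0.28, adjusted p = 0.606) with 30% sucrose at adequate copper and by 0.53 (SE 0.28, adjusted p = 0.232) with low copper at 10% sucrose. Cxcr4, for Cxcl12, differed by 0.32 and 0.48 and the scavenger Ackr3 (Cxcr7 on the array) by 0.43 and 0.33. Cxcr1, Cxcr5, Cxcr6 and Ackr1 were not tested. Cxcr6, for Cxcl16, was not well above background in any of the 24 rats, and Cxcr5, for Cxcl13, was in 5 of them (2 on each diet poor in copper and 1 on the high-sucrose diet).

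Of 7 other CXC ligands 5 were tested and 1 was called. Among all genes 18.4% were called higher for sucrose at adequate copper, 18% higher for copper at 10% sucrose and 18.9% lower in the interaction. The ligand called was Ppbp, a platelet chemokine. Ppbp was well above background in 3 of 6 control rats and in 6 of 6 on each of the high-sucrose and low-copper diets. It rose by 0.89 (SE 0.19, adjusted p = 0.00298) with 30% sucrose at adequate copper and by 0.72 (SE 0.19, adjusted p = 0.0102) with low copper at 10% sucrose, with an interaction of -1.23 (SE 0.27, adjusted p = 0.00382). None of these passed with the slide as a block, where they were 0.40, 0.41 and -0.98. Cxcl3, the nearest kin of Cxcl2, was well above background in the same 5 livers as Cxcl2 and in rat 4 on the high-sucrose diet. Its levels in the 5 were -4.45, -2.91, -4.26, -2.45 and -4.10, in the order used above, and -4.89 in the sixth. In rat 5 on the high-sucrose diet, the liver with the highest Cxcl1, Cxcl3 was at -7.50 and not well above background. These 6 livers alone took the probe past the filter, and no control rat had it above background, so no difference is given. A second Cxcl3 probe was well above background in 1 control rat and in none of the 6 livers.

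The genes that induce or answer NF-kappaB were examined because Cxcl1 and Cxcl2 are textbook targets of it. Of 12 listed, 8 were tested. With 30% sucrose at adequate copper 1 of the 8 was called higher, against 18.4% of all genes. It was Icam1, the adhesion molecule that stops leukocytes on endothelium (0.97, SE 0.33, adjusted p = 0.0393). In the interaction 3 were called lower: Tnf by -2.48 (adjusted p = 0.0375), Icam1 by -1.49 (adjusted p = 0.0255) and Nfkbia, the inhibitor of NF-kappaB, by -0.93 (adjusted p = 0.0466), where 18.9% of all genes were called lower. With the slide as a block none of the list passed in any comparison, and the 3 interactions were -1.09, -1.24 and -0.88. Over the 8 the median difference with 30% sucrose at adequate copper was 0.70, and 0.067 over all genes. Tnf in single rats was at -1.23 in rat 5 on the high-sucrose diet, at 0.11 in rat 2 on the low-copper diet, and from -2.39 to -1.73 in the other 4 livers with Cxcl2 above background. In the remaining 18 rats Tnf ran from -4.76 to -2.85.

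Other interferon genes were read beside Cxcl9, Cxcl10 and Cxcl11, none of which passed. Of 12 tested genes of the interferon gamma axis 2 were called with 30% sucrose at adequate copper, Socs1, a feedback inhibitor of cytokine signals (1.22, SE 0.25, adjusted p = 0.00229), and Gbp5, a guanylate-binding protein (1.56, SE 0.49, adjusted p = 0.0261). Irf1, an interferon-induced transcription factor, was at 0.45 (SE 0.33). The median of the 12 was 0.35. Of 14 tested genes of the type I interferon axis Rsad2 alone was called there (0.62, SE 0.20, adjusted p = 0.0337), with a list median of 0.12. With low copper at 10% sucrose Socs1 was called (1.25, SE 0.25, adjusted p = 0.00187) among the first list and none in the second. These shares are below those over all genes (18.4% higher for sucrose and 18% higher for copper). With the slide as a block none of either list passed, and Socs1 was at 0.21 and 0.57 and Gbp5 at 1.69 for sucrose.

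Neutrophil markers were read because these cells carry Cxcr2. Of 8 tested neutrophil genes 5 were called higher with 30% sucrose at adequate copper (S100a8, S100a9, Csf3r, Camp and Cxcr2), 2 with low copper at 10% sucrose (Csf3r and Cxcr2), and 5 lower in the interaction, against 18.4% of all genes higher, 18% higher and 18.9% lower. Fpr1, Mpo and Lcn2 were not called. With the slide as a block none of the 8 passed in any comparison, and for 30% sucrose Csf3r went from 1.54 to 0.19 while S100a8 went from 2.94 to 3.26. Their summed signal, in multiples of the array's 75th percentile, ran from 0.521 to 1.16 on the control diet, 1.15 to 302 on the high-sucrose diet, 0.688 to 86.2 on the low-copper diet and 0.671 to 25.2 on the combined diet. The medians were 0.77, 2.9, 1.33 and 0.854 in that order. Most of the highest sum came from Lcn2, at a level of 8.14 in rat 5 on the high-sucrose diet (difference with 30% sucrose 3.70, SE 1.58, adjusted p = 0.101). Elane, Mmp8, Mmp9, Ngp and Ltf did not pass the filter. In whole liver, more cells of a type and more RNA per cell cannot be told apart, and the part of these cells in the Cxcl1 result was not tested. S100a8 was highest, at 3.18, in the rat with the highest Cxcl1, and stood at 0.19 in rat 2 on the low-copper diet, which ranked second for Cxcl1.

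Some markers of T cells, which Cxcl9, Cxcl10 and Cxcl11 attract, were called and others were not. With 30% sucrose at adequate copper Cd3g, Cd247 and Cd8a (-0.21) were not called, nor were the cytotoxic cell genes Gzmb, Prf1 and Nkg7. Of 11 tested, 5 were called higher with 30% sucrose at adequate copper (18.4% of all genes), among them Lck (1.12, SE 0.22) and Cd3d (1.04, SE 0.22). With low copper at 10% sucrose 4 were called higher (18% of all genes), and in the interaction 5 were called lower (18.9% of all genes). The summed signal of the 11 ran from 1.07 to 1.52 on the control diet and from 1.74 to 2.74 on the high-sucrose diet. On the low-copper diet it ran from 1.25 to 3.85 and on the combined diet from 1.21 to 2.3. The control and high-sucrose ranges did not overlap, and 11.9% of all single genes were higher without overlap there. The share among sums of 11 genes was not computed. With the slide as a block none of the 11 passed, Lck was at -0.07, and the list's median difference was -0.10 in place of 0.53. Of all genes 18.4% were called higher with 30% sucrose at adequate copper. There 1 of 4 tested B cell markers and 1 of 10 for Kupffer cells and macrophages were called higher. These were Cd79a, of the B cells that Cxcl13 attracts (1.21, SE 0.41, adjusted p = 0.0393), and Csf1r (0.69). Neither passed with the slide as a block, where Cd79a was at -0.60 and Csf1r at -0.11. Whether these cells bear on the chemokine values was not tested.

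Members were then compared with each other over the rats. Cxcl1 and Cxcl10 fell into separate clusters of rats, and for pairs with them correlations were taken only within clusters of at least 6. Of the other 10 pairs, Cxcl9 and Cxcl11 were the most alike, with r = 0.69 (permutation p = 0.00016, adjusted p = 0.0016) and rho = 0.73 (permutation p = 0.00012, adjusted p = 0.0012) over 24 rats. Without the 2 rats farthest from the Cxcl9 median r was 0.65, on deviations from the diet means it was 0.68 (permutation p = 0.00073, adjusted p = 0.0073), and within slides 1, 2 and 3 it was 0.46, 0.82 and 0.83. Within the 19 rats below the gap in Cxcl10, Cxcl10 went with Cxcl9 at r = 0.85 (permutation p = 3e-05, adjusted p = 0.00048) and rho = 0.84 (permutation p = 1e-05, the smallest that 100000 resamples can give, adjusted p = 0.00016), and at r = 0.81 without the 2 farthest rats.

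Other pairs were weaker. Cxcl12 and Cxcl16 ran opposite at r = -0.52 (permutation p = 0.00791, adjusted p = 0.0395), but rho was -0.40 (permutation p = 0.0529, adjusted p = 0.132). It rested on 2 rats, without which r was -0.25. Cxcl13 and Cxcl16 gave r = -0.48 (adjusted permutation p = 0.0487) and rho = -0.38 (0.136), and -0.23 without 2 rats, with opposite signs on slides 1 (0.43) and 2 (-0.94). Cxcl9 and Cxcl16 passed by rank alone, with rho = 0.56 (adjusted permutation p = 0.0237) and r = 0.39 (0.0938). Cxcl11 and Cxcl16 gave r = 0.47 (adjusted permutation p = 0.0487) and rho = 0.44 (0.104), and 0.35 without 2 rats. Of 16 relations within clusters, the one between Cxcl10 and Cxcl9 was the only one with an adjusted permutation p under 0.05. Cxcl1 and Cxcl10 gave r = 0.46 (adjusted permutation p = 0.316) and rho = 0.48 (0.253) in the 14 rats below the gap of Cxcl1.

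The genes most like each member, by Pearson r of levels over the 24 rats and given without a test, differed from member to member. Cxcl10 was closest to Atf3 (0.94), a stress-induced transcription factor, Bok (0.91) and Ccl2 (0.90), a monocyte attractant. Cxcl16 was closest to Vcam1 (0.92), an adhesion molecule of activated endothelium, S100a10 (0.92) and Bcl2a1 (Bcl2a1d on the array, 0.91). For Cxcl1 the nearest were an unnamed transcript (ENSRNOT00000040211, 0.88), Unc5cl (0.87) and Rhbdf2 (0.86). Cxcl9 was nearest to Anxa4 (0.83), Ifi27l2b (0.78), an interferon-induced gene, and Scly (0.78), and Cxcl11 to Tsx (0.83), Parp14 (0.81) and TC583187 (0.78). Cxcl12 was nearest to Hsd17b2 (0.84), Clec2d2l2 (LOC689770 on the array, 0.79) and Vapa (0.77), and Cxcl13 to Fmo1 (0.86), Akr1c1 (0.81) and Paqr7 (0.80), of which Fmo1 and Akr1c1 encode drug- and steroid-metabolising enzymes. With deviations from the diet means in place of levels, the 3 nearest genes of Cxcl12 were the same, 2 of 3 were for Cxcl9, Cxcl10, Cxcl11 and Cxcl13, 1 of 3 for Cxcl16 and 0 of 3 for Cxcl1. The points of these correlations share arrays and slides. Cxcl1 and Cxcl10 fell into separate clusters of rats, so their r over all 24 rats can rest on that split alone. For these neighbours r within clusters was not taken.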

How the data were processed

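Liver RNA of each rat was read on a one-colour array. Scans were quantified in Agilent Feature Extraction (version 10.7.3.1, protocol GE1_107_Sep09), and probe positions are on rn4, per the file headers. Per the file headers, the processed signal that the authors deposited is an intensity from which the background and spatial trend of that array were removed. The authors' series table holds a score, quantile-normalized, whose scale is not given in the sources used here, and it was used as an alternative only. Spot quality marks in the deposited files are other values, used as marks only. Of 58717 non-control spots per array, the 0.652% marked as outliers were left out before averaging over each of the 30367 probes. Of these, 21179 were well above background on 6 or more arrays and were kept. Each of 18641 gene names was then represented by its brightest probe. No member was saturated on any array. Log2 levels were modelled in limma 3.58.1 (R 4.3.3), with a mean per diet over all 24 rats, two-sided, with Benjamini-Hochberg adjustment over all genes of a comparison at 0.05. The fit was tested on simulated data.

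Correlations used 100000 permutations (scipy 1.17.1). These 2 rules were set after the values were seen: rats count as separate clusters where a gap exceeds 25% of a gene's range with at least 5 rats on each side, and 2 rats that stood apart in inflammatory genes were left out as an added alternative. Named genes were the members, the 3 genes most like each, every receptor, and up to 4 genes per list by smallest p. Neutrophil and T cell markers that were not called were named too. S100a8, Lcn2, Tnf, Irf1, Cxcl3 and Alb in single rats or comparisons were chosen after their values were seen. The members and lists were chosen with earlier results of these data known. Rats of one diet are separate animals, and rats of the same number in different diets did not deviate together (correlations -0.29 to 0.36). All series table columns were mapped to samples (0 unmapped). Upstream sequences are from RefSeq (GRCr8), and positions on rn4 and GRCr8 were not converted. Other settings tried were the authors' table, quantile normalization, normexp (offset 50), a filter on all 24 arrays or none, slide as a block or random block, the replicate number as a block, array weights, both groups only, the mean of probes, and leaving out each rat.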

Additional observations from a re-analysis of the deposited data

Results flagged for a closer look

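Of 32 groups of 6 rats examined (8 members in 4 diets), 4 had a rat far from the other 5, and chance alone flags about 1 in 20 groups. Each rat enters the groups of all 8 members, so the groups are not independent and the count is no test. Rat 4 on the combined diet stood above its group in 3 members: Cxcl1 at 3.26 (next rat -0.98), Cxcl2 at -2.58 (next rat -7.14, not well above background) and Cxcl11 at 0.12 (next rat -0.69). Rat 5 on the high-sucrose diet stood below its group for Cxcl9 at -3.15 (next rat -1.27). The copper difference of Cxcl1 at 30% sucrose differed from that at 10% sucrose by -4.76 (limma adjusted p = 0.0255), with 5 of 6 rats on low copper below the adequate copper mean at 30% sucrose and 4 of 6 above it at 10%, and the slide as a block took this to -4.50 (adjusted p = 0.367).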

How the results depend on the processing

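Of 408 values under other settings 371 kept direction and call, and of 840 with 1 rat left out 800 did. The count of members called for 30% sucrose at adequate copper fell from 2 to 1 under normexp, with no filter, with the filter on all 24 arrays (which drops Cxcl13) and with the replicate block (Cxcl13 -1.31, adjusted p = 0.0699), and to 0 with the slide as a block or random block. Leaving out 1 rat gave 1 to 2, since Cxcl13 (-1.48 to -1.10, adjusted p 0.00683 to 0.108) lost its call in 18 of 24 fits, while Cxcl1 kept it (3.38 to 4.32, adjusted p 0.0061 to 0.0393). The interaction count of 1 fell to 0 with the slide block, the random block (Cxcl1 -4.69, adjusted p = 0.0759) and without the 2 rats, and was 1 throughout with 1 rat left out. The replicate block changed no other call, and rats share only a number. Only with array weights did Cxcl11 pass at adequate copper (0.56, adjusted p = 0.035).

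Differences of members that turned sign were all of uncalled values (of listed genes called for sucrose, Cd79a, Csf1r and Lck turned with the slide block). With the slide block these were low copper at 30% sucrose for Cxcl9 (-0.03) and Cxcl12 (-0.01), low copper at 10% sucrose for Cxcl12 (0.06) and Cxcl16 (-0.23), 30% sucrose at adequate copper for Cxcl12 (0.22) and at low copper for Cxcl1 (0.06), Cxcl10 (0.72) and Cxcl16 (0.42), and the interaction for Cxcl9 (-0.63), Cxcl12 (-0.07) and Cxcl16 (0.22). Without the 2 rats they were Cxcl9 (-0.23) for low copper at 30% sucrose, Cxcl13 (0.10) and Cxcl16 (-0.10) at 10% sucrose, Cxcl10 (0.07), Cxcl12 (-0.07) and Cxcl16 (0.07) for sucrose at low copper, and the Cxcl9 interaction (-0.29). With array weights they were Cxcl9 (-0.15 for low copper at 30% and -0.02 at 10% sucrose, -0.13 for the interaction) and Cxcl13 (0.14 for low copper at 10% sucrose). Cxcl9 at 10% sucrose also turned under quantile normalization (-0.02) and in the authors' table (-0.01), and its interaction under normexp (-0.03) and the slide random block (-0.16). The correlation of Cxcl13 and Cxcl16 turned on slide 1 (0.43). With 1 rat left out the ranges that cross 0 were those of Cxcl9 (-0.23 to 0.33) and Cxcl11 (-0.25 to 0.03) for low copper at 30% sucrose, Cxcl9 (-0.05 to 0.24), Cxcl13 (-0.69 to 0.10) and Cxcl16 (-0.10 to 0.31) at 10% sucrose, Cxcl10 (-1.03 to 0.07), Cxcl12 (-0.07 to 0.29) and Cxcl16 (-0.33 to 0.07) for sucrose at low copper, and the Cxcl9 interaction (-0.36 to 0.20). The causes were not tested. Signal over background limits Cxcl2, Cxcl13 and the receptors, and 6 rats per diet limit every difference.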
